A study of Mus musculus with 2 samples.

Results

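General capillary endothelial cells were picked out of droplet-based single-cell RNA-Seq (10x Genomics 3′ chemistry) of dissociated mouse lung. A cell barcode was taken as a member when it held at least 200 genes, at most 20% mitochondrial unique molecular identifiers (UMIs, each counting 1 captured RNA molecule) and at least 3000 UMIs, at least 10 UMIs of Pecam1, Cdh5, Cldn5 and Calcrl together, and no UMI of the leukocyte gene Ptprc. Its UMIs of Kit, Gpihbp1, Glp1r and Plvap had to sum to at least 5 and to more than its UMIs of the aerocyte genes Ednrb, Fibin, Chst1 and Car4. Fewer than 3 UMIs of the venous genes Slc6a2, Prss23 and Vegfc, fewer than 2 of the arterial genes Gja5, Bmx and Dkk2, and fewer than 3 of the lymphatic genes Mmrn1, Prox1 and Reln were allowed. By these counts 4863 of 25094 barcodes were members, 3126 of 11721 in the Cebpa fl/fl library and 1737 of 13373 in the Cebpa ΔSftpc library. Measured counts therefore chose the cells, and the levels of the genes named in this rule are given as description.

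Both groups carried the floxed Cebpa allele on a mixed genetic background, and the methods give mice of 3 months unless stated otherwise. Cebpa ΔSftpc mice also carried the tamoxifen-inducible Sftpc-CreERT2 driver, which is active in alveolar type 2 (AT2) cells and not in endothelium, while Cebpa fl/fl mice lacked it. To delete Cebpa, tamoxifen was injected at 75 mg per kg once a day on 5 days. Experiments that ran past 3 months added a weekly round. These lungs were taken 26 weeks after the first injection. The study used male and female mice without treating sex as a variable, and the sex of these mice is not given in the sources used here. Each genotype gave 1 library in which the cells of 3 mice cannot be told apart, so no difference between genotypes has a replicate check and no p-value is given. Intervals throughout are 95% intervals that cover counting error only.

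General capillary cells and aerocytes line the alveolar capillaries. General capillary cells carry the receptor tyrosine kinase Kit, the lipoprotein lipase anchor Gpihbp1 and the apelin receptor Aplnr, and are known as the cells that divide and replace capillaries after injury. Aerocytes, marked by Car4, Ednrb and Apln, lie thin against the gas exchange surface. Capillary cells sit beside AT2 and AT1 epithelium and exchange vascular growth factors, angiopoietins and bone morphogenetic proteins (BMPs) with their neighbours.

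The 3126 Cebpa fl/fl members had a median of 4928 UMIs and 2249 genes and summed to 17705243 UMIs, and the 1737 Cebpa ΔSftpc members had a median of 5708 UMIs and 2465 genes and summed to 11171177 UMIs. Their median mitochondrial share was 3.23% and 3.65%. The libraries shared 45 barcode sequences. Of these, 17 belonged to a member of either library and 1 to a member of both. The targeted gene was checked first in AT2 barcodes, chosen after its values were seen by at least 10 UMIs of Lamp3, Slc34a2, Napsa and Abca3, at most 1 pan-endothelial UMI and no Ptprc UMI. Cebpa stood at 159 counts per 1000000 UMIs (CPM; 146 to 173, 189 barcodes) in Cebpa fl/fl and at 93.7 CPM (66.9 to 128, 24 barcodes) in Cebpa ΔSftpc. In general capillary cells, where the driver is not active, Cebpa stood at 13.7 CPM (12.1 to 15.6) and 15.0 CPM (12.9 to 17.5). Whether the counted 3′ end lies inside the floxed segment is not given in the sources used here.

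RNA from other cells was present in the members' droplets and differed between the libraries. The 11 AT2 markers summed to 6958 CPM in Cebpa fl/fl and 1827 CPM in Cebpa ΔSftpc members, led by Sftpc, the gene of surfactant protein C, at 4933 and 1039 CPM. The 8 neutrophil markers summed to 6.16 and 159 CPM, led by S100a9, with Ly6g at 0 in both. The 7 erythroid markers found in the files summed to 932 and 1379 CPM, led by Hbb-bs. The 12 macrophage and monocyte markers summed to 537 and 547 CPM, led by Lyz2, and 2.91% and 16.9% of members held at least 3 UMIs of those markers when Lyz2 was not counted. Fibroblast markers summed to 247 and 236 CPM, with Dcn the most abundant. Smooth muscle and pericyte markers summed to 67.4 and 107 CPM, led by Acta2, airway markers to 446 and 522 CPM, led by Scgb1a1. Platelet markers summed to 112 and 94.9 CPM, led by Pf4, lymphocyte markers to 3.45 and 25.2 CPM, led by Cd79a, and mesothelial markers to 0.734 and 1.34 CPM, led by Msln. AT1 markers summed to 969 and 944 CPM. They were led by Clic5, which stood at 628 and 671 CPM in members and is therefore not a mark of AT1 cells here.

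The levels of some abundant nuclear and ribosomal RNAs also differed. Gm42418 and AY036118, overlapping genes on chromosome 17 that lie in ribosomal RNA sequence, together took 2.404% of member UMIs in Cebpa fl/fl and 5.14% in Cebpa ΔSftpc. The nuclear RNA Malat1 took 5.35% and 3.84%. Aerocytes showed the same shift, from 1.68% to 3.65% for the ribosomal pair and from 4.81% to 3.55% for Malat1. Nuclear RNAs did not move as a group. Of the 8 listed, 4 were higher in Cebpa ΔSftpc members and 4 lower, against 45.6% of all genes higher. Their median log2 ratio was 0.13 (-0.07 to 0.39), and they summed to 77597 and 86887 CPM. The part of RNA composition and of free RNA in the gene differences was not tested.

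General capillary cells were the most numerous endothelial class of both libraries, and their share depended on what they were set against. Of barcodes with at least 3000 UMIs that passed the filters, they made up 38.1% (37.0 to 39.1, Clopper-Pearson, 8209 barcodes) in Cebpa fl/fl and 28.0% (26.8 to 29.1, 6212 barcodes) in Cebpa ΔSftpc, a log2 ratio of -0.45 (-0.53 to -0.36). Of endothelial barcodes they made up 52.0% (50.7 to 53.2) and 51.2% (49.5 to 52.9), a log2 ratio of -0.02 (-0.11 to 0.06). The lower share was thus seen against all cells and was not detectable within the endothelium at this depth.

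Aerocytes were called by the mirrored rule, with at least 5 UMIs of their own genes. Venous and arterial cells were endothelial barcodes with at least 3 and 2 UMIs of their own genes, below the limits for the other vessels. No condition was set on their general capillary and aerocyte sums, so they can include barcodes that met the general capillary conditions. Aerocytes made up 22.0% (20.9 to 23.1) and 25.1% (23.7 to 26.6) of endothelial barcodes, and arterial cells 5.72% (5.15 to 6.34) and 2.98% (2.43 to 3.61). There were 2.36 general capillary cells per aerocyte in Cebpa fl/fl and 2.04 in Cebpa ΔSftpc. Venous cells stood at 16.3% and 15.8%, with overlapping intervals.

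The filters bore on these shares unequally. At least 3000 UMIs were held by 8209 of 11487 filtered barcodes in Cebpa fl/fl and 6212 of 13238 in Cebpa ΔSftpc. Set against all filtered barcodes, general capillary cells made up 27.2% and 13.1%, a log2 ratio of -1.05 (-1.14 to -0.97). The condition of no Ptprc UMI took the endothelial barcodes from 6062 to 6014 in Cebpa fl/fl and from 4133 to 3392 in Cebpa ΔSftpc, and with 1 or 2 Ptprc UMIs allowed the log2 ratio of the share was -0.26. With every cell thinned to 3000 UMIs before the rule was applied, the shares were 40.8% and 30.5%.

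**Figure D1:**
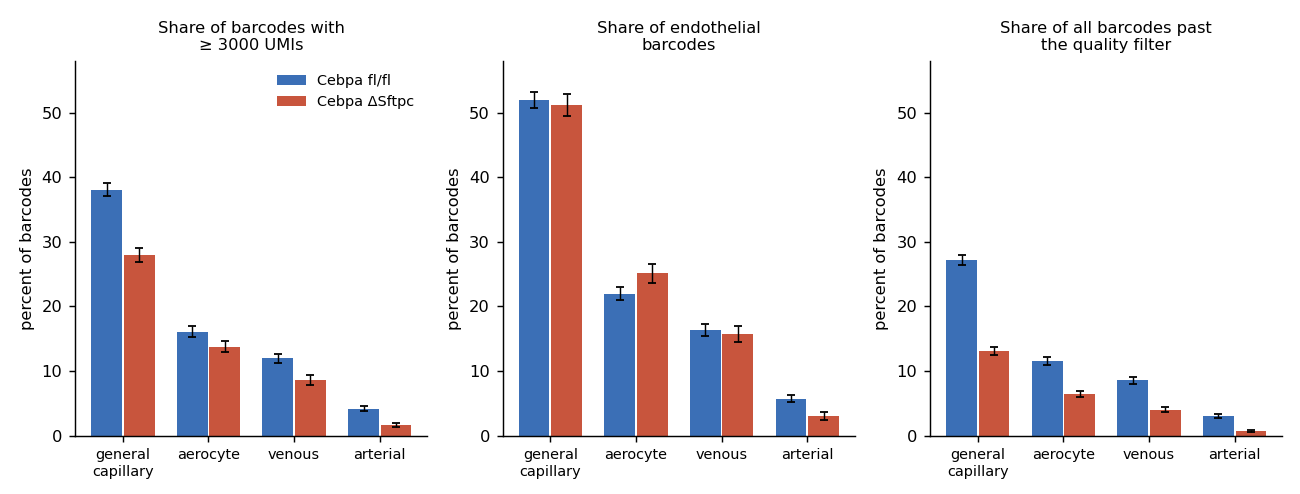
Share of 4 endothelial classes in the Cebpa fl/fl and Cebpa ΔSftpc libraries, as percent of barcodes with at least 3000 UMIs (left), of endothelial barcodes (middle) and of all barcodes past the quality filter (right), with 95% Clopper-Pearson intervals. General capillary cells stood at 38.1% and 28.0% on the left and at 52.0% and 51.2% in the middle.

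The cells carried the genes of their label, which the rule itself asked for. All 4 defining genes were found in 78.4% of members in Cebpa fl/fl and 68.0% in Cebpa ΔSftpc, and 3 of 4 in a further 18.3% and 26.7%. Kit stood at 680 and 707 CPM, Gpihbp1 at 1532 and 1312 CPM, and Glp1r, the receptor of the incretin hormone, at 816 and 678 CPM. Plvap, which forms the diaphragms of fenestrae and caveolae, stood at 1642 and 766 CPM, a log2 ratio of -1.10. That ratio was -0.98 in aerocytes, whose Plvap level was far lower (91.5 and 46.3 CPM).

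Few members lay near the limits set on the general capillary and aerocyte sums. A sum of exactly 5 UMIs of the 4 genes was held by 21 and 19 members, while 10 and 22 barcodes with a sum of 4 met all other conditions. Of members, 4 and 7 exceeded their aerocyte sum by 1 UMI, and 1 and 10 barcodes with equal sums were left out. Aerocyte genes were not absent: 38.8% of members in Cebpa fl/fl and 34.0% in Cebpa ΔSftpc held none of their UMIs, and 7.77% and 11.2% held at least 5. The venous limit set more barcodes aside. With it, barcodes that met the earlier conditions went from 4387 to 3391 in Cebpa fl/fl and from 2342 to 1813 in Cebpa ΔSftpc. The arterial limit then took them to 3137 and 1748. Of members, 39.0% and 37.1% held 1 or 2 UMIs of the venous genes.

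Genes outside the rule separated general capillary cells from aerocytes in the same way in both libraries. The 12 with the widest gap were Fabp4, Edn1, Hmcn1, Esm1, Gpr182, Syt15, Ackr4, Car14, Aplnr, Tox3, Npr3 and Glb1l2. Edn1, the precursor of the vasoconstrictor endothelin, stood at 343 and 337 CPM in general capillary cells and at 17.0 and 18.5 CPM in aerocytes. Aplnr stood at 129 and 135 CPM against 8.5 and 7.14 CPM, and Gpr182, a chemokine-binding receptor, at 198 and 164 CPM against 12.5 and 9.02 CPM. The gap was seen in both libraries.

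Fabp4, a fatty acid carrier, showed the widest gap and was held by few cells. It stood at 45.4 and 68.1 CPM in general capillary cells and at 1.48 and 1.35 CPM in aerocytes, but a UMI was found in only 0.992% and 2.13% of members thinned to 3000 UMIs, with up to 72 and 90 UMIs in 1 cell. Before thinning 1.38% and 3.05% of members held all of it, and venous cells had more, at 135 and 77.4 CPM.

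In the other direction the 12 genes were Ncam1, Masp1, Slc5a12, Dpysl5, Rbfox3, Rspo3, Xpnpep2, Gm40639, Rprml, Htr2b, Cdkn2a and Ccdc184. Rprml stood at 4.80 and 6.27 CPM in general capillary cells and at 291 and 245 CPM in aerocytes. Rspo3, a secreted amplifier of Wnt signalling, stood at 1.13 and 1.70 CPM against 99.2 and 72.1 CPM. The classes were chosen by their own counts, so these gaps describe them and are no test.

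Between genotypes, 10900 genes with at least 100 UMIs over both libraries' members were compared as the log2 ratio of CPM, Cebpa ΔSftpc over Cebpa fl/fl. Past 2-fold, 178 genes (1.63%) were higher and 226 (2.07%) lower, and the median over all of them was -0.03. The balance of the 2 directions turned with the processing: genes at least 2-fold higher numbered 226 and genes at least 2-fold lower 69 without the barcodes of highest Scrublet doublet score, and 132 and 43 with every cell thinned to 3000 UMIs. Many of these are genes of other cells. The 10 lowest of those with at least 500 UMIs were Fam183b, Sftpd, Fam124a, Sftpc, Gm47283, Tmem212, S100g, Sftpa1, Chchd10 and Cldn3. Most are known from AT2 or ciliated cells. Sftpc had a ratio of -2.25 (-2.27 to -2.22) in members and of -2.46 in aerocytes, while the 595 and 370 barcodes with at least 3000 UMIs and none of Pecam1, Cdh5, Cldn5 and Calcrl held 47759 and 6211 CPM of it.

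Among the 10 highest were Chil3, S100a9, S100a8, Igkc, Ankrd37, Bhlhe40, Lrg1, Tnfrsf10b and Nrp2. Chil3, a secreted product of macrophages, stood at 0.395 and 82.9 CPM in members, at 0.494 and 76.9 CPM in aerocytes and at 3.49 and 526 CPM in barcodes without endothelial UMIs. S100a9 stood at 2.15 and 84.0 CPM, against 0.775 and 9930 CPM in those barcodes. A Chil3 UMI was found in 22.1% of thinned Cebpa ΔSftpc members and in 17.4% of thinned fibroblasts of the same library, which should lack it (median depths before thinning 5708 and 9646 UMIs). Before thinning those shares were 37.7% and 35.5%. Fibroblasts here are barcodes with at least 10 UMIs of Col1a1, Col3a1 and Dcn, at most 1 pan-endothelial UMI and no Ptprc UMI.

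To set such genes aside, the comparison was repeated on the 6859 genes that were at least as high in members as in barcodes without endothelial UMIs, taken in the library where members had more, and without mitochondrial, ribosomal protein and defining genes. Of these, 75 (1.09%) were at least 2-fold higher in Cebpa ΔSftpc and 34 (0.496%) at least 2-fold lower, with a median of -0.01. A gene can pass this filter through the genotype in which members are higher, so these counts and the genes at either end describe the set and support nothing. With the filter set on the mean level of both libraries, chosen after the data were seen, 6807 genes were left, of which 59 (0.867%) were at least 2-fold higher and 29 (0.426%) at least 2-fold lower. Of the 24 genes at either end Nrp2 and Gm47283 no longer passed. Of the 12 highest with at least 500 UMIs 11 are described next, and then the 12 lowest.

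**Figure D2:**
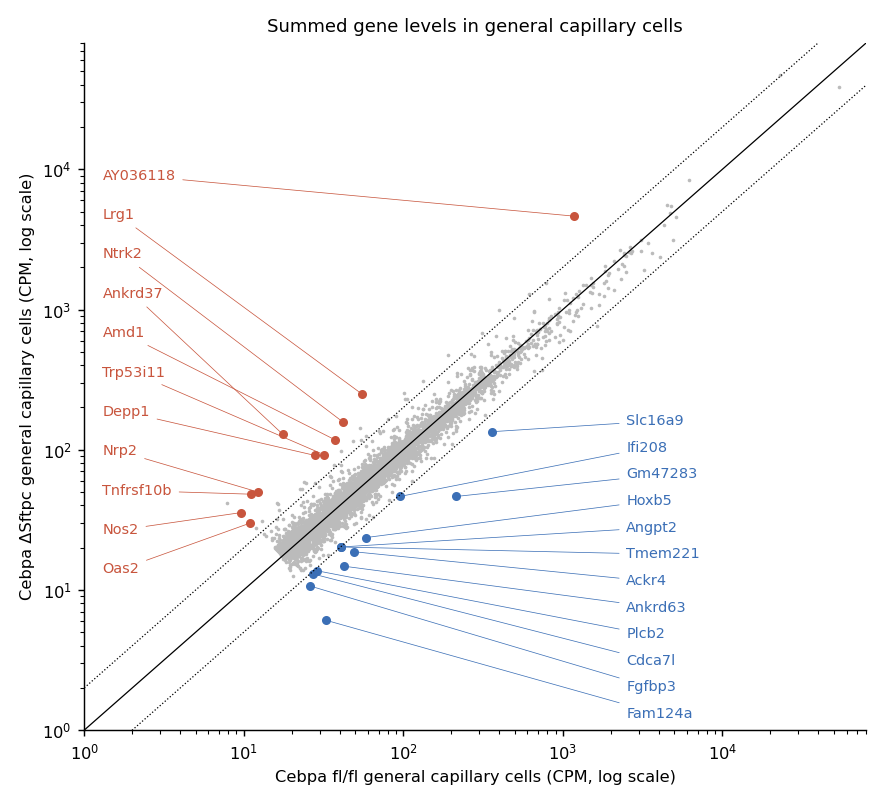
Summed level of each gene in general capillary cells, in CPM on log axes, Cebpa fl/fl against Cebpa ΔSftpc, for genes with at least 500 UMIs that were at least as high in members as in barcodes without endothelial UMIs. The solid line marks equal levels and the dotted lines 2-fold. Of the 12 highest ratios 11 (red) and the 12 lowest (blue) are named, from Ankrd37 at 2.88 to Fam124a at -2.42.

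Ankrd37, an ankyrin repeat gene known as a target of hypoxia-inducible factors, had the largest ratio of these genes and lies at chr8:45996902-46005707 (GRCm38, minus strand). It stood at 17.5 CPM (15.6 to 19.6) in Cebpa fl/fl and 129 CPM (123 to 136) in Cebpa ΔSftpc, a log2 ratio of 2.88 (2.71 to 3.06). Aerocytes had 15.0 and 98.6 CPM, so both capillary classes differed alike. After thinning to 3000 UMIs, an Ankrd37 UMI was found in 4.38% (3.69 to 5.16) of members in Cebpa fl/fl and 23.03% (21.1 to 25.1) in Cebpa ΔSftpc, and in 1.02% and 0.645% of fibroblasts, whose median depths before thinning were 7846 and 9646 UMIs. Without thinning, 7.77% and 34.2% of members held one.

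The promoter of Ankrd37 is printed because its ratio leads the list and the core letters that hypoxia-inducible factors are known to bind can be looked for in it. The window runs from 250 bases before to 50 after the RefSeq start at chr8:45999801-46000100 (GRCm38.p6, minus strand, read 5′ to 3′), with each match to ACGTG on either strand in capitals.
Ankrd37: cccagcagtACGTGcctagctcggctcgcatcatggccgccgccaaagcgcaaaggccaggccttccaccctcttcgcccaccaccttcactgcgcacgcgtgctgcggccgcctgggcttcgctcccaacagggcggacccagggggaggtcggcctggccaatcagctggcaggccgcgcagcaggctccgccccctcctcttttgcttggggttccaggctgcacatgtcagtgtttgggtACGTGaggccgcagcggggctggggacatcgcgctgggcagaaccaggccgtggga
The matches begin at positions -241 and -6 from the RefSeq start. The window lies inside the gene at the position given above, which is from GENCODE and begins further upstream. ACGTG was found in 19.6% of all 32851 promoter windows of this length, and in 2 of the 8 windows available for the 12 highest genes, those of Ankrd37 and Lrg1. A match is a description of letters and not a bound site. Of the 15 measured genes of the hypoxia list, 12 were above 0, against 45.6% of all 10900 genes compared, and the list's median was 0.21. Past 2-fold higher were 2, Adm at 1.68 and Ndrg1 at 1.18, against 1.63% of all genes. Hilpda stood at -0.27, Vegfa at -0.25, Slc2a1 at 0.21 and Pgk1 at 0.11.

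Lrg1 and Nrp2 are known from vessel growth and remodelling. Lrg1, a secreted glycoprotein that alters TGF-β signalling in vessels and lies at chr17:56119678-56122001, stood at 55.4 and 248 CPM, a ratio of 2.17 (2.06 to 2.27). In aerocytes Lrg1 stood at 59.6 and 81.6 CPM, a ratio of 0.45 (0.29 to 0.62), so its intervals in the capillary classes did not meet. Nrp2, a co-receptor for semaphorins and VEGF-C, stood at 12.3 and 49.95 CPM in general capillary cells, a ratio of 2.03 (1.80 to 2.26), and at 6.03 and 6.73 CPM in aerocytes, a ratio of 0.16 (-0.41 to 0.72). Over 17 settings of the processing the Nrp2 ratio in general capillary cells lay between 1.84 and 3.70.

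Ntrk2, the receptor of brain-derived neurotrophic factor at chr13:58806569-59133970, stood at 41.7 CPM (38.8 to 44.9) and 158 CPM (151 to 165), a ratio of 1.92 (1.80 to 2.05). Its ratio was larger in aerocytes, at 2.96 (2.53 to 3.43), and in venous cells, at 2.82, from lower levels. Nos2, the inducible nitric oxide synthase, stood at 9.66 and 35.6 CPM, a ratio of 1.88, and at 7.81 and 47.4 CPM in aerocytes. Tnfrsf10b, a receptor for the death ligand TRAIL, stood at 11.1 and 48.2 CPM, a ratio of 2.11, with 1.80 in aerocytes and 2.54 in venous cells.

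Others of the 12 were Depp1, a target of FOXO factors, with a ratio of 1.70, Amd1, an enzyme of polyamine synthesis, at 1.64, Trp53i11 at 1.54, the interferon-induced Oas2 at 1.46, and AY036118 at 1.98. Amd1 has a close copy elsewhere in the mouse genome and its counts are uncertain for that reason. AY036118 also stood at 2.04 in aerocytes and 1.74 in venous cells and belongs with the RNA composition above.

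**Figure D3:**
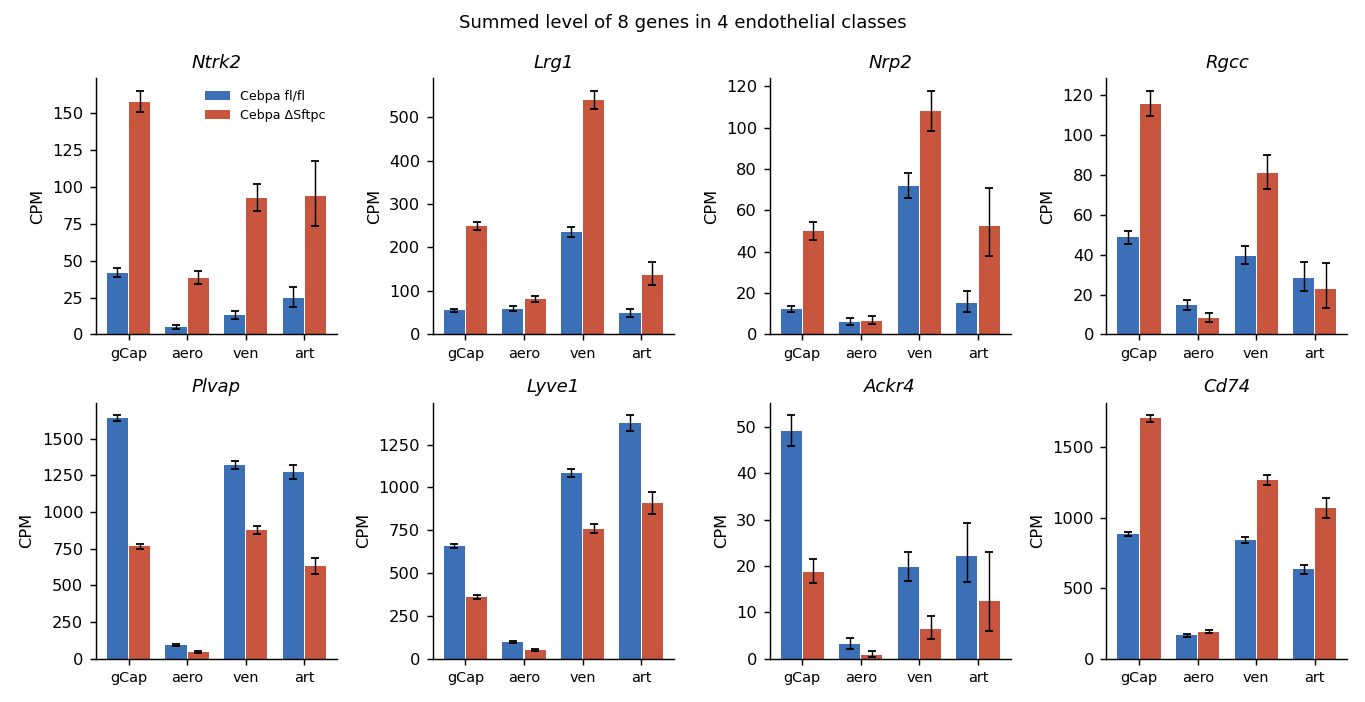
Summed level in CPM of 8 genes in general capillary cells (gCap), aerocytes (aero), venous (ven) and arterial (art) endothelial cells of the Cebpa fl/fl and Cebpa ΔSftpc libraries, with exact Poisson intervals. Nrp2 stood at 6.03 and 6.73 CPM in aerocytes and was higher in Cebpa ΔSftpc in the other classes, and Rgcc was higher in general capillary cells (48.6 and 116 CPM) and lower in aerocytes (14.5 and 8.22 CPM).

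The 12 lowest genes were led by Fam124a at 32.5 and 6.09 CPM, a ratio of -2.42 (-2.80 to -2.05), and by the predicted gene Gm47283, which lies on chromosome Y, at 213 and 46.4 CPM, a ratio of -2.20 and equally -2.20 in aerocytes. Since the sex of the mice in each library is not given, sex and genotype cannot be told apart for Gm47283. Slc16a9, a member of the monocarboxylate transporter family, stood at 357 CPM (349 to 366) and 134 CPM (128 to 141), a ratio of -1.41 (-1.49 to -1.33). In aerocytes its ratio was -0.61 (-0.69 to -0.53), so the intervals did not meet.

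Ackr4, a scavenging receptor for chemokines that hardly any aerocyte carried, stood at 49.1 CPM (45.9 to 52.5) and 18.7 CPM (16.3 to 21.4), a ratio of -1.39 (-1.62 to -1.17). After thinning, an Ackr4 UMI was found in 14.2% and 5.30% of members, 0.303% and 0.117% of aerocytes and 0.338% and 1.29% of fibroblasts, and without thinning in 21.1% and 9.33% of members. Angpt2, a ligand of the Tek receptor that loosens vessels, stood at 40.5 and 20.2 CPM, a ratio of -1.001 (-1.22 to -0.78), and was past 2-fold in 12 of 17 settings of the processing. The others were Ankrd63 at -1.52, the homeobox gene Hoxb5 at -1.31, Fgfbp3 at -1.29, Cdca7l at -1.07, Plcb2 at -1.07, Ifi208 at -1.04 and Tmem221 at -1.01. Of these Tmem221 was past 2-fold in 11 of the 17 settings, Ifi208 in 14, and Cdca7l and Plcb2 in 16. Ankrd63 and Plcb2 are neighbours on chromosome 2 with 3.55 kb between them. In aerocytes Ankrd63 stood at -1.72 and Plcb2 at -0.06, so the pair did not move together there.

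Several abundant genes of general capillary cells were lower without passing 2-fold, and were chosen after their values were seen. Hpgd, which breaks down prostaglandins, stood at 4071 and 2363 CPM, a ratio of -0.78, and at -0.62 in aerocytes. Lyve1, a hyaluronan receptor better known from lymphatic vessels, stood at 657 and 362 CPM, a ratio of -0.86. The lymphatic genes Mmrn1, Prox1 and Reln summed to 5.03 and 4.74 CPM in the same cells.

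Gene lists set these genes beside others of their pathways. The lists were chosen with earlier results of these data known, so counts and medians over them are description and test nothing. Lrg1 and Ntrk2, named above for their ratios, are in the first list. Of the 22 genes listed for injury-activated capillaries, 21 were measured, 18 were above 0 and 8 were past 2-fold higher, against 45.6% and 1.63% of all genes. The median log2 ratio was 0.57 against -0.03 over all genes and 0.45 in aerocytes. The list summed to 3239 and 4592 CPM in members and to 6273 and 7699 CPM in barcodes without endothelial UMIs, with Vim the most abundant, and the part of RNA from those cells was not tested. With free RNA subtracted the median was 1.07. Free RNA was taken throughout as the profile of filtered barcodes of any depth without endothelial UMIs, scaled on Sftpc, Sftpa1, Sftpb and Scgb1a1. That profile comes from other cells, and with it subtracted the median of AT2 markers was 1.13 and of macrophage and monocyte markers -3.84. Medians under this setting therefore do not show what remains without free RNA. Among the 8 genes past 2-fold were Lrg1, Ntrk2, Apln at 1.51, Vwa1 at 1.40, Sparcl1 at 1.31, Cd34 at 1.22 and Timp1 at 1.08. Apln, the ligand of Aplnr and in healthy lung a gene of aerocytes, stood at 8.64 and 24.6 CPM in general capillary cells, with a ratio of 0.08 in aerocytes. After thinning, an Apln UMI was found in 1.57% and 3.97% of members and in 46.1% and 49.8% of aerocytes. The aerocyte genes of the rule had a median of 0.50 in members, and the part of aerocyte RNA was not tested. Sparcl1, a matrix-associated glycoprotein, stood at 398 and 987 CPM, and the surface sialomucin Cd34 at 133 and 310 CPM. Esm1, at -0.75, Il33, at -0.90, and Spp1, at -0.26, were the members below 0.

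All 14 measured genes of the basement membrane list were above 0, against 45.6% of all genes, with a median of 0.44, and 0.48 in aerocytes. With free RNA subtracted the median was 0.75. Past 2-fold, as were 1.63% of all genes in this direction, were Hspg2, the gene of perlecan, at 9.55 and 37.3 CPM (ratio 1.97), Col4a2 at 311 and 684 CPM (1.13) and Col4a1 at 617 and 1288 CPM (1.06). Sparc stood at 0.82, Col18a1 at 0.82, Lama4 at 0.65, Agrn at 0.54 and Nid1 at 0.35. Barcodes without endothelial UMIs went the other way, with the list summing to 3371 and 1863 CPM there and to 1996 and 3586 CPM in members.

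Col4a1 and Col4a2, which encode the paired chains of type IV collagen, lie head to head on chromosome 8, and their annotated genes overlap at their starts. Their shared start region is printed because both moved by nearly the same ratio, in aerocytes too (0.58 and 0.66). The window is that of Col4a2 at chr8:11312555-11312854 (GRCm38.p6, plus strand), and also holds the start of Col4a1 on the other strand. Matches to CCAAT, the letters known for nuclear factor Y, and to GGGCGG, known for Sp1, on either strand are in capitals.
Col4a2: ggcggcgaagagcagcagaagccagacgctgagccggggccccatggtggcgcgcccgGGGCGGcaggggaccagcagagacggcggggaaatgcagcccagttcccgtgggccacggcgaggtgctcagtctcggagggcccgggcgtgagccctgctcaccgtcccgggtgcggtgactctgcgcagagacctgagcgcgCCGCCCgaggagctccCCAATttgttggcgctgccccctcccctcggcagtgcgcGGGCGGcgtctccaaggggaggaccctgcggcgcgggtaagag
CCAAT begins at position -32 from the start of Col4a2, and the GGGCGG matches at -192, -48 and 8. CCAAT was found in 37.4% and GGGCGG in 35.7% of all promoter windows, so both are common letters.

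Of the antigen presentation genes, those of class II were higher and those of class I level in the median. All 7 class II genes were above 0, against 45.6% of all genes, with a median of 0.61, and none was past 2-fold, as 1.63% of all genes were. Cd74, the invariant chain, stood at 885 CPM (871 to 899) and 1703 CPM (1679 to 1727), a ratio of 0.94, and in aerocytes at 165 and 190 CPM, a ratio of 0.20. Ciita, the master regulator of class II genes, stood at 29.8 and 54.3 CPM, a ratio of 0.87, H2-Eb1 at 0.70, H2-Ab1 at 0.61, H2-DMa at 0.59, H2-Aa at 0.48 and H2-DMb1 at 0.16. The class I list had a median of 0.01 over 12 genes, with H2-D1 at -0.19 and Nlrc5 at 0.82. Class II genes are abundant in leukocytes, and in barcodes without endothelial UMIs the class II list summed to 2208 and 4928 CPM, against 2164 and 3597 CPM in members. With free RNA subtracted, the median of the class II list was 0.46, and it was 0.63 without the 19.1% and 28.7% of members that held at least 3 UMIs of the markers of any lineage other than AT1.

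In thinned members, a Cd74 UMI was found in 64.9% and 85.0%, against 8.29% and 16.1% of fibroblasts (73.4% and 92.0% of members without thinning) and 13.3% and 27.9% of aerocytes. H2-Ab1 gave 55.5% and 70.6%, with 4.23% and 9.68% of fibroblasts. The share in members was far above that in fibroblasts of the same library in both genotypes. Aerocytes held a mean of 0.297 and 0.536 Cd74 UMIs per thinned cell, and 0.116 and 0.230 H2-Ab1 UMIs, so the size of the difference in aerocytes depends on whether their counts are summed or thinned, and no contrast between the capillary classes is drawn from it.

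Of the 18 measured genes of BMP and TGF-β signalling, 13 were below 0, against 54.4% of all genes, and none was past 2-fold lower, as 2.07% of all genes were, with a median of -0.27 and -0.17 in aerocytes. Smad6, an inhibitory SMAD induced by BMPs, stood at 325 and 177 CPM (ratio -0.88), Bmp4 at 59.4 and 34.9 CPM (-0.77), the co-receptor Eng at 1104 and 708 CPM (-0.64), Bmp6 at 398 and 263 CPM (-0.60) and Bmpr2 at 1686 and 1288 CPM (-0.39). Bmpr2 stood at 0.04 in aerocytes. The BMP targets Id1, Id2 and Id3 stood at -0.22, -0.52 and -0.21, and Smad7 at 0.07.

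Immediate early genes, which respond within minutes to stress and to tissue digestion, had 17 of 20 above 0, against 45.6% of all genes, and a median of 0.52. Myc at 1.66, Fosl2 at 1.37 and Egr3 at 1.14 were past 2-fold, against 1.63% of all genes at least 2-fold higher. Jun stood at -0.22 and Fos at 0.30. Heat shock genes had a median of 0.17, with Hspa1a at 0.79. With free RNA subtracted the median of the immediate early list was 0.26, and without members that held at least 3 UMIs of the markers of any lineage other than AT1 it was 0.48. With AT1 markers also used to leave out members, that median was 0.26 (0.04 to 0.66). Handling of the libraries and genotype cannot be told apart.

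The medians of the lists that follow here lay between -0.16 and 0.22, against -0.03 over all genes. General capillary genes outside the rule had a median of -0.01 (Cxcl12 0.34, Aplnr 0.07, Edn1 -0.02, Tek -0.40, Ptprb -0.51), and endothelial transcription factors of -0.05 over 16 genes (Sox17 0.58, Erg -0.05, Klf2 -0.22, Sox18 -0.38). The list of VEGF, angiopoietin, apelin and Kit ligands and receptors had a median of -0.02, with Kdr at -0.02, Flt1 at 0.04, the co-receptor Nrp2 and the ligand Apln past 2-fold higher and the ligand Angpt2 at the limit of 2-fold lower. Notch genes had a median of -0.07, vascular tone genes of -0.16 (Ramp2 -0.76, Nos3 0.66), haemostasis genes of -0.00384 (Vwf -0.26, Thbd -0.07), leukocyte adhesion genes of -0.06 (Icam1 0.30, Vcam1 -0.11) and caveola genes of 0.08. The rule used Kit of the VEGF list and Plvap of the caveola list, and without them the medians were -0.02 and 0.09. Interferon genes had a median of 0.13, with 20 of 25 above 0, against 45.6% of all genes, and Ifi27l2a, at 1.38, past 2-fold, against 1.63% of all genes at least 2-fold higher. Junction genes had a median of 0.14 (Gja1 1.304), and of 0.19 over the 13 that the rule for the cells did not use, leaving out Cdh5, Cldn5 and Pecam1. Glucocorticoid and clock genes had a median of 0.22, with Fkbp5, at 1.06, past 2-fold. Over 18 settings of the processing the interferon, glucocorticoid and junction medians were above 0 in 18, and the vascular tone and transcription factor medians in 0. Other medians turned sign. Those of the general capillary genes outside the rule and of leukocyte adhesion were above 0 in 8 settings, and of haemostasis in 7. The VEGF median was above 0 in 4, the Notch median in 2, and the caveola and nuclear RNA medians in 16. The class I median given above was above 0 in 13. The 13 mitochondrial genes had a median of 0.06 and the 8 nuclear RNAs of 0.13.

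The medians of 3 more lists, which lay further from 0, also changed direction with the processing. Lipid uptake genes had a median of -0.24 over 6 measured genes (Cd36 -0.26, Lpl -0.31, Fabp4 0.59), of which the rule used Gpihbp1. That median was above 0 in 4 of 18 settings, and 0.057 with every cell thinned. Aerocyte genes outside the rule had a median of 0.37, with Sirpa at 1.85 and Apln at 1.51 past 2-fold, against 1.63% of all genes at least 2-fold higher, and Cyp4b1 at -0.99. Their median was -0.062 without members that carry UMIs of another lineage and -0.047 in members nearly free of aerocyte UMIs. Mesenchymal genes had a median of 0.38, with Acta2 at 1.59 and Tagln at 1.54 past 2-fold, against the same 1.63%, and Col1a1 at -0.12. Their median was above 0 in 15 of 18 settings, -0.18 without members that carry UMIs of another lineage and -0.021 with free RNA subtracted. Acta2, Tagln and Myh11 are smooth muscle genes, and at least 3 UMIs of the smooth muscle and pericyte markers were found in 1.44% and 3.22% of members.

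**Figure D4:**
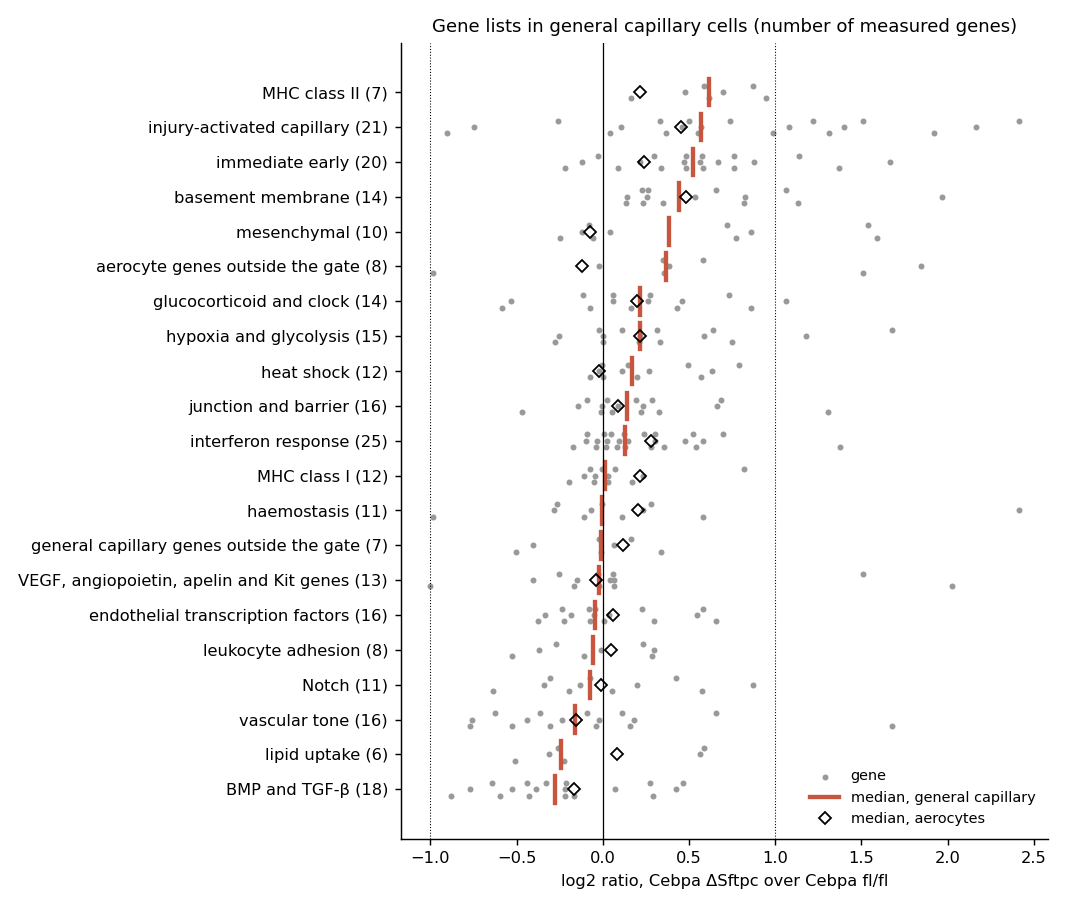
Log2 ratio, Cebpa ΔSftpc over Cebpa fl/fl, of each measured gene (grey points, at least 100 UMIs) of 21 gene lists in general capillary cells, with the list median (red bar) and the median in aerocytes (open diamond). Dotted lines mark 2-fold. The MHC class II median (0.61) and the injury-activated capillary median (0.57) lie furthest right and the BMP and TGF-β median (-0.27) furthest left.

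Single members showed how these levels were spread. After thinning each cell to 3000 UMIs, an Lrg1 UMI was found in 11.2% (10.1 to 12.4) of members in Cebpa fl/fl and 32.5% (30.3 to 34.7) in Cebpa ΔSftpc, with 0.338% and 5.16% in fibroblasts. An Nrp2 UMI was found in 2.43% and 9.67%, and an Ntrk2 UMI in 9.12% (8.13 to 10.2) and 29.0% (26.8 to 31.2). Fibroblasts express Nrp2 and Ntrk2 themselves, at 20.1% and 15.5% and at 11.5% and 15.5%, so they give no background for those genes. Without thinning, 15.8% and 43.4% of members held an Lrg1 UMI, 3.999% and 15.8% an Nrp2 UMI, and 13.8% and 39.4% an Ntrk2 UMI.

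Members with an Ntrk2 UMI differed from those without in other genes, in both libraries. A Lyve1 UMI was found in 39.3% of the 285 thinned Cebpa fl/fl members with Ntrk2 and in 67.4% of the 2841 without, and in 30.8% of 503 and 51.2% of 1234 in Cebpa ΔSftpc. Cd74 went the other way, with 85.6% against 62.8% and 94.2% against 81.3%. This split was chosen after the values were seen and describes cells of 1 library each.

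Ankrd37 and Lrg1 were spread otherwise. In Cebpa ΔSftpc, Ankrd37 was found in 37.97% (33.7 to 42.4) of members with Ntrk2 and in 16.9% (14.9 to 19.1) of those without, against 5.61% and 4.26% in Cebpa fl/fl. Lrg1 was found in 34.0% and 31.8% of members with and without Ntrk2 in Cebpa ΔSftpc, with overlapping intervals.

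Cycling members were rare in both libraries. At least 3 UMIs of Mki67, Top2a, Cdk1, Birc5, Cenpf, Ccnb1 and Ccna2 were held by 5 of 3126 Cebpa fl/fl members (0.160%, 0.052 to 0.373) and 10 of 1737 Cebpa ΔSftpc members (0.576%, 0.276 to 1.06). These separate intervals overlap, which does not show the shares to be equal, and the difference was not tested. Of the 17 genes of the proliferation list 8 were measured, 6 of them above 0 against 45.6% of all genes. The list's median was 0.33, and 0.10 in aerocytes, with Pcna at 0.38 and Stmn1, the most abundant, at -0.23. The 10 cycling cells held 197 of the 294 UMIs of these genes in Cebpa ΔSftpc members. In aerocytes the counts were 0 of 1322 cells, which allows a share of up to 0.227%, and 5 of 853.

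Genes past 2-fold were more frequent near Sftpc on chromosome 14, which was noticed after the values were seen. Of the 6859 genes that were at least as high in members as in barcodes without endothelial UMIs, 109 (1.59%) were past 2-fold in either direction. Among the 59 of them within 10 Mb of the Sftpc start, 7 (11.9%) were, and among the 31 within 5 Mb, 4 (12.9%). No other of the 238 genes of chromosome 14 in that set was past 2-fold. With the filter on the mean level of both libraries, Trim13, Gm16867 and Rgcc no longer passed, and 4 of 57 genes within 10 Mb (7.02%) were past 2-fold, against 1.29% of that set. Without a level filter, 404 of the 10900 genes (3.71%) were past 2-fold. On chromosome 14 they were 23 of 383 (8 higher and 15 lower), of which 12 of 92 lay within 10 Mb (13.04%, 6 higher and 6 lower) and the others farther away.

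Of the 7 genes past 2-fold at least as high in members as in barcodes without endothelial UMIs, Trim13 at -2.09, Fam124a at -2.42, Gm16867 at -3.63, Gm49417 at -2.57 and Cysltr2 at -2.93 were lower and Tnfrsf10b at 2.11 and Rgcc at 1.25 higher in Cebpa ΔSftpc. Cysltr2, a leukotriene receptor, held 133 and 11 UMIs, and Gm16867 held 118 and 6. The same 6 genes other than Rgcc had the same sign in aerocytes, with ratios of -3.15, -0.99, -3.33, -3.72, -2.95 and 1.80 for Trim13, Fam124a, Gm16867, Gm49417, Cysltr2 and Tnfrsf10b. Sftpc is the gene whose promoter drives the Cre of Cebpa ΔSftpc mice, and the mice had mixed backgrounds. Linkage to the driver's chromosome and the deletion of Cebpa cannot be told apart for genes of this region.

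**Figure D5:**
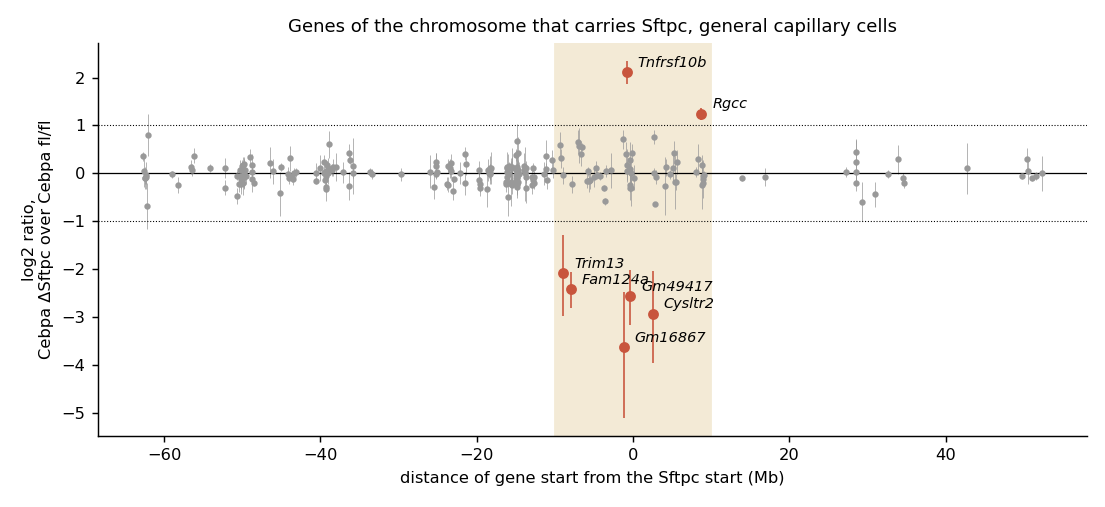
Log2 ratio, Cebpa ΔSftpc over Cebpa fl/fl, in general capillary cells of genes on the chromosome that carries Sftpc, against the distance of each gene's start from the Sftpc start in Mb, with 95% counting intervals. Only genes at least as high in members as in barcodes without endothelial UMIs are drawn, and the shaded band marks 10 Mb on either side. The 7 genes past 2-fold in that set (red, named) lie inside it.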

How the data were processed

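Libraries were made from lungs dissociated with Liberase and DNase I, and the series' design text adds a sort for live cells. The authors deposited, per library, filtered UMI counts per gene and barcode, which are raw counts and not normalized. The methods and the submitters' processing notes name Cell Ranger 6.1.1 and mouse build mm10, while the matrix headers name version 5.0.0. 

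Members and gene lists were chosen with earlier results of these data known. The counts of members were summed per library and gene and divided by all member UMIs (CPM). Log2 ratios were given for genes with at least 100 UMIs, with sums under 3 counts raised to 3, exact conditional binomial intervals for ratios and exact Poisson intervals for CPM. A count of 0 was taken to allow 3 counts. Medians of lists were set beside the median of all genes compared. With 1 library per genotype no test was made. Deposited counts of 25094 barcodes were used, and no barcode was removed as a doublet (leaving out the 8% with the highest Scrublet scores per library was an alternative, as were other limits, thinning, scalings and free RNA subtraction). Named genes were the 10 highest and 10 lowest ratios over 500 UMIs, the 12 highest and lowest among genes at least as high in members as in barcodes without endothelial UMIs, the 12 furthest from aerocytes in each direction, and the lists. A gene that this rule names is not reported here. Gene positions are from GENCODE vM21 (GRCm38) and promoters from RefSeq (GRCm38.p6), with windows for 8 of the 12 highest and 9 of the 12 lowest genes. The work was done in Python 3.11.15 (scipy 1.17.1 for the intervals, scanpy 1.11.5 for Scrublet scores, matplotlib 3.10.9 for plots), and the ratio and its interval were tested on simulated data.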

Additional observations from a re-analysis of the deposited data

Results flagged for a closer look

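Of the named genes, 6 moved in opposite directions in general capillary cells and aerocytes, by at least 0.25 on the log2 scale each way with counting intervals clear of 0. The difference between the classes was not tested, since each genotype is 1 library. Rgcc, a regulator of the cell cycle, had a log2 ratio (Cebpa ΔSftpc over Cebpa fl/fl) of 1.25 in general capillary cells (861 and 1291 UMIs) and of -0.82 in aerocytes (147 and 61 UMIs). Hes1, a Notch target, had 0.42 (3514 and 2974 UMIs) against -0.34. Mecom, a transcription factor, had 0.30 against -0.97, the latter from 107 and 40 UMIs. S100a6, a calcium-binding protein, had 0.33 against -0.27. Cd44, a hyaluronan receptor, had -0.37 against 0.91, the latter from 80 and 110 UMIs. Spp1, the gene of osteopontin, had -0.26 against 2.04, the latter from 37 and 112 UMIs.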

How the results depend on the processing

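With 1 library per genotype, no setting could leave out a replicate, and all values hold counting error only. No paired analysis was possible because each group holds 1 library. Alternatives with 1 or 2 Ptprc UMIs allowed, with a rule without Plvap, with AT1 markers not used with members nearly free of aerocyte UMIs and with the level filter on the mean of both libraries were chosen after seeing the data. Leaving out members that carry UMIs of another lineage took 78.5% and 81.6% of members, mostly through the AT1 list that Clic5 leads, and 19.1% and 28.7% with AT1 markers not used. The cause of each change was not tested. The log2 ratio of the share of general capillary cells (-0.45) was -0.19 at 5000 UMIs, -1.06 at 1000 UMIs, -0.54 with a general capillary sum of at least 10, -0.67 without members that carry UMIs of another lineage and -0.63 when AT1 markers were not used for that, -0.022 of endothelial barcodes, -1.05 of all filtered barcodes and -0.26 with 1 or 2 Ptprc UMIs allowed. Genes at least 2-fold higher (178) numbered 67 without members carrying another lineage, 51 at a minimum of 500 UMIs and 443 at 30. Genes at least 2-fold lower (226) numbered 69 without the 8% of barcodes with the highest Scrublet scores, 52 without other-lineage members (73 with AT1 markers not used), 43 thinned, 146 with free RNA subtracted, 40 at a minimum of 500 UMIs, 567 at 30 and 131 in members nearly free of aerocyte UMIs.

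The percent of 2-fold genes that are higher was 44.1%, and 32.8% at 5000 UMIs, 76.6% without Scrublet calls, 56.3% without other-lineage members (66.1% with AT1 markers not used), 75.4% thinned and 56.0% at a minimum of 500 UMIs. The injury-activated median (0.57) was 0.85 without Scrublet calls, 0.89 thinned, 1.07 with free RNA subtracted and 0.88 with AT1 markers not used. The basement membrane median (0.44) was 0.65, 0.75 and 0.70 under the Scrublet, free RNA and AT1 settings and 0.60 at a minimum of 30 UMIs. The BMP and TGF-β median (-0.27) was -0.39 without other-lineage members, -0.21 with free RNA subtracted and -0.22 at 30 UMIs, the immediate early median (0.52) was 0.26 without other-lineage members and 0.26 with free RNA subtracted, and the MHC class II median (0.61) was 0.46 with free RNA subtracted.

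Some directions turned. Without other-lineage members the medians of the other aerocyte genes and the mesenchymal genes were -0.062 and -0.18, and the former was -0.047 in members nearly free of aerocyte UMIs. The mesenchymal median was also -0.021 with free RNA subtracted and -0.058 at 500 UMIs. The lipid uptake median was 0.057 thinned, 0.17 with free RNA subtracted, 0.13 at 30 UMIs and 0.15 with AT1 markers not used. With free RNA subtracted, which took 11.4% and 13.8% of member UMIs, the AT2, erythroid and macrophage medians were 1.13, -6.75 and -3.84, Sftpc 1.18 and S100g 3.32, and the smooth muscle median was -0.11 at 30 UMIs. Each of the 12 higher genes that passed the level filter in the library where members had more was past 2-fold in 17 of 17 settings (Nrp2 does not pass the filter on the mean of both libraries), as did Fam124a, Gm47283, Ankrd63, Slc16a9, Ackr4, Hoxb5 and Fgfbp3 among the lower, while Cdca7l and Plcb2 did in 16, Ifi208 in 14, Angpt2 in 12 and Tmem221 in 11.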
